A study of Mus musculus with 6 samples.

Results

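Chromosome 11 of the mouse carries Lasp1, and 8 genes in its neighbourhood were examined here because their array signal had separated Lasp1 knockout from wild type stomach: Elobl, 2210409E12Rik, Tom1l1, Rsad1, Acsf2, Rapgefl1, Smarce1 and Krt12. They were chosen by the values of the same 6 arrays, as genes within about 100 measured genes of Lasp1, so their differences between the genotypes are a description and support nothing on their own. Every probe with one of these symbols was taken, which gave 12 probes of 45281 on the array and 8 genes of 19057 with a name. All 12 probes passed the filter on dim probes, Elobl through its signal in the knockout group, and 11868 named genes passed in all.

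RNA of the fundic mucosa of the stomach, from C57Bl/6Ncr mice aged 3 months, was biotin-labelled and measured on Illumina bead arrays. One group held 3 arrays of wild type mucosa and the other 3 arrays of mucosa from mice with a deletion of Lasp1, whose LIM and SH3 domain protein binds actin and is plentiful in the parietal cells that secrete acid. How the allele was made, from which embryonic stem cells, over how many generations it was backcrossed, and whether each array held a separate mouse are among the points that the sources used here leave unstated. The p-values therefore measure the spread between these samples, which may be technical, and the number of arrays limits their precision.

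Genes that lie close together on a chromosome are inherited together. When a gene is targeted in embryonic stem cells of one strain and the mice are crossed to another, a stretch of chromosome from the stem cell strain usually stays beside the targeted allele, and genes in it can carry the alleles of that strain. Such neighbours are called passenger or flanking genes, and in knockout and wild type animals they can differ in level, or in how well a probe pairs with the transcript, whatever the targeted gene does. No genotype or sequence of these mice was analysed here, so whether any of the 8 genes lies in such a stretch was not tested.

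In the gene order of the mouse reference, 5 of the 8 lay before Lasp1 and 3 after it. Measured genes are here the named genes with a probe that passed the filter. Counted in measured genes, Elobl lay 71 genes before Lasp1, 2210409E12Rik 70, Tom1l1 61, Rsad1 49 and Acsf2 48. On the other side Rapgefl1 lay 23 genes after Lasp1, Smarce1 30 and Krt12 32. Elobl and 2210409E12Rik were thus next to each other among the measured genes, as were Rsad1 and Acsf2. Genes with no probe past the filter may lie between them. The 44 measured genes nearest to Lasp1 held none of the 8.

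The reference sequence upstream of 4 of the genes is shown because these are the ones with the largest differences (Elobl, Krt12), with probes that disagreed (Rapgefl1) or next to a member that differed in the opposite direction (Acsf2). Each is the 250 bases before the transcript start in RefSeq's GRCm38.p6 of C57BL/6J, read 5′ to 3′ on the strand of the gene, and it shows the reference allele, not that of the mice studied. Capitals mark a TATA box (TATAAA or its reverse complement TTTATA) or a GC box (GGGCGG or CCGCCC).
Elobl, chr11:88966932-88967181, - strand: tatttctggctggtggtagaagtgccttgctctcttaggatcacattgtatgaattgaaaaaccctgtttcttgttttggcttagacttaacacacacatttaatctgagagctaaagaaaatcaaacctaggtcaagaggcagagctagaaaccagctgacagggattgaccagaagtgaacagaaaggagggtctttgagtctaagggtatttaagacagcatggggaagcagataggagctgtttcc
Krt12, chr11:99422260-99422509, - strand: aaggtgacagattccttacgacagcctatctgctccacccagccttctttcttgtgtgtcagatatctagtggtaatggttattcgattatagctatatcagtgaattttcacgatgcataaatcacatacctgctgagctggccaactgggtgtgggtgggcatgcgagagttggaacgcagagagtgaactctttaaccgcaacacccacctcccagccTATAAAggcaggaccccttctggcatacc
Acsf2, chr11:94601787-94602036, - strand: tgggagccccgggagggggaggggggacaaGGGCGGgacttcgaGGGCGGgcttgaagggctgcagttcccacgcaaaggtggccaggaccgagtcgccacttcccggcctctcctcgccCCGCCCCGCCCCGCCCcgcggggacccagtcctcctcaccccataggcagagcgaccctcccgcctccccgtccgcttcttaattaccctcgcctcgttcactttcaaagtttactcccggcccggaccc
Rapgefl1, chr11:98836535-98836784, + strand: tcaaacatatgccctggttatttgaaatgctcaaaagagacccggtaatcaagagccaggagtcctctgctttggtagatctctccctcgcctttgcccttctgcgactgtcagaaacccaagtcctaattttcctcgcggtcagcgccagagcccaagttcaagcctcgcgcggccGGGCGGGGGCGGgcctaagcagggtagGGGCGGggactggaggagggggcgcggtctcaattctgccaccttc

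The Elobl window held none of these motifs and no CCAAT box (CCAAT or ATTGG), and had 0 CG pairs and a GC content of 42.4%. Krt12 had 1 TATA box, which began 29 bases before the start, and a GC content of 48.4%. The Acsf2 window held 5 GC boxes, of which 3 overlapped each other by a base, and the Rapgefl1 window held 3; their GC contents were 70% and 58.8%. Over all 32851 windows of that length, 12.4% held a TATA box, 32.7% a GC box and 33.8% a CCAAT box, with a median GC content of 52.4% and a median of 6 CG pairs. These matches describe letters only. Windows of 6 of the 8 genes were in the table, and 2210409E12Rik and Smarce1 had no entry.

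Signal is given as the probe intensity in the authors' scale, in which every array has a median of 1000 and background is not subtracted. As a guide to background, the 26 probes of genes on the Y chromosome read between 653 and 1212 over the 6 arrays, with a median of 829. The guide holds for female tissue only. Xist, an RNA made in female cells, read 55746 to 88070 in wild type and 85558 to 87993 in knockout. The labelled tissue was present on every array: the summed intensity of 12 gastric mucosa genes ran from 3905952 to 3987322 in wild type and from 4015368 to 4237358 in knockout. Transcripts of other tissues were unequal. The 12 squamous epithelium genes measured summed to 455371 on wild type replicate 2 and 789023 on knockout replicate 1, against 18569 to 30841 elsewhere. The 14 pancreatic acinar genes summed to 7876386 on wild type replicate 3, against 667126 to 887332 elsewhere. The 8 smooth muscle genes measured summed to 296345 on knockout replicate 1 and 46998 to 128607 on the other arrays. All 8 were higher in mean in the knockout (median log2 difference 0.61, and 0.49 after quantile normalization). Of the 12 squamous genes 11 were higher in mean in the knockout (median 0.28, and 0.23 after quantile normalization). Of the 14 pancreatic acinar genes only 1 was (median -1.77, and -1.8 after quantile normalization). The part of these transcripts in the differences below was not tested. The titles also number the arrays, and numbers 1 to 3 (wild type replicates 1 and 2, knockout replicate 1) and 4 to 6 (wild type replicate 3, knockout replicates 2 and 3) formed 2 sets that differed in some genes: Acot1 read 33706 to 50752 and 2573 to 3588 in these sets. The meaning of the number is not in the labels, so differences within each set are given below for the brightest probe of each of the 8 genes, as values with no test. Each rests on 1 array of one genotype, knockout replicate 1 or wild type replicate 3.

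Lasp1, the deleted gene, was lower on all 3 knockout arrays on 2 of its 3 probes. Its brightest probe read 270957, 275068 and 177315 in wild type mucosa, in the order of the replicates, and 88521, 111002 and 89823 in knockout mucosa. The groups did not overlap, and the log2 difference, knockout minus wild type, was -1.30 (SE 0.21, limma adjusted p = 0.994 with Benjamini-Hochberg adjustment over all 22640 probes). The unadjusted limma p was 0.000412, so the test over all probes did not call the deleted gene itself. An adjusted p of 0.994 therefore does not show that a gene is unchanged. Of the other Lasp1 probes, ILMN_2879745 also had groups that did not overlap (-1.59, SE 0.34), and the dim ILMN_2596851 overlapped (970 to 1483 in wild type and 877 to 1156 in knockout, -0.21). Where the probes lie relative to the deleted part is not stated in the sources used here.

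Of the 12 probes of the 8 genes, 1 passed the limma test over all probes at an adjusted p under 0.05, that of Elobl, and 0.00883% of all probes tested passed. With array weights 9 of the 12 passed and 8.02% of all probes, on a fit that rested largely on 1 array, wild type replicate 2. The groups did not overlap for 8 of the 12, 6 higher and 2 lower in the knockout, and for 7.19% of all probes tested (6.17% higher and 1.02% lower). Because the genes were chosen for having separated the genotypes on these arrays, nothing is read from that count. Taking each gene by its brightest probe, 4 had a higher mean log2 value in the knockout (Elobl, Acsf2, Smarce1, Krt12) and 4 a lower one (2210409E12Rik, Tom1l1, Rsad1, Rapgefl1). The groups of 6 of the 8 did not overlap in the deposited values, and those of all 8 did not after quantile normalization, which gives every array the same distribution and under which 6.36% of all probes separated. The median of all tested probes differed by 0.10 log2 in the deposited values and by 0.0036 after quantile normalization, so the differences of the members' probes are also given after it.

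**Figure D1:**
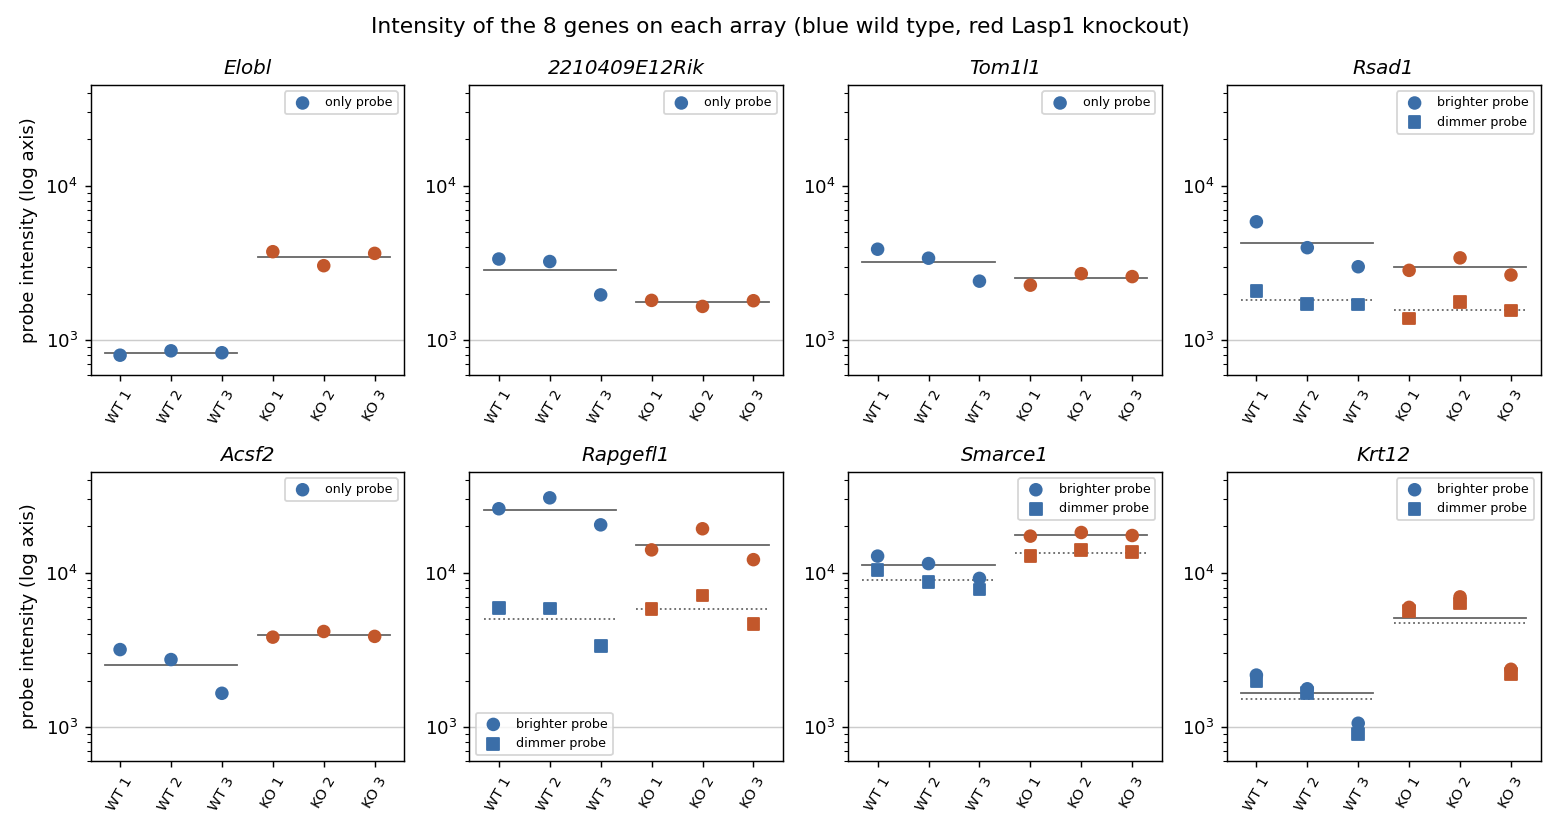
Probe intensity (log axis) of the 8 genes on each of the 3 wild type (WT, blue) and 3 Lasp1 knockout (KO, red) arrays; lines are group means (dotted for the dimmer probe) and the pale line marks 1000, the median of every array. Elobl read 802 to 856 in wild type and 3044 to 3749 in knockout, while Tom1l1 and Rsad1 overlapped between the groups.

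Elobl encodes a protein like elongin B, the ubiquitin-like subunit that pairs with elongin C in cullin ubiquitin ligases and in the elongin complex. Its probe, ILMN_1223594, read 802, 856 and 832 in wild type mucosa, within the range of the Y-linked probes. In knockout mucosa it read 3749, 3044 and 3657. The lowest knockout array thus lay 1.83 log2 above the highest wild type array, the widest gap of the 8 genes. Elobl rose from 830 ± 27 to 3483 ± 383 (mean ± SD, n = 3 each). The log2 difference was 2.06 (SE 0.13, limma adjusted p = 0.0153). The wild type signal lies in the background range and background is not subtracted, so the measured ratio of 4.18 understates the ratio of signal above background. Whether the level of the transcript or the pairing of the probe with it differed was not tested. Since the same arrays chose the gene, the test describes them and is no independent evidence.

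The size of the Elobl difference changed little when single arrays were left out, while the call was lost in most cases. After quantile normalization it was 2. Within the arrays numbered 1 to 3 and 4 to 6 it was 2.18 and 2 as deposited, and 1.99 and 2.04 after quantile normalization. With background correction by normexp before quantile normalization it was 3.50, and with an offset of 1000 added before the log it was 1.29 (limma adjusted p = 0.0829). A block for the title-number set gave 2.09 (limma adjusted p = 0.0127), with Elobl again 1 of the 12 probes past the threshold and 0.0133% of all probes past it. Leaving out any 1 array except wild type replicate 3 ended the call, at log2 differences of 2.01 to 2.16. The limma adjusted p was then 0.137 or 0.276 on leaving out wild type replicate 1 or 2, and 0.122, 0.0801 or 0.255 on leaving out knockout replicate 1, 2 or 3. A block for the replicate number (2.06, limma adjusted p = 0.0711) and leaving out both arrays high in squamous transcripts (2.03, limma adjusted p = 0.81) also ended it. Over all alternatives the adjusted p ran from 0.00012 to 0.81.

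A probe that the annotation used here does not name, ILMN_2993962, followed Elobl on every array. It read 876, 879 and 885 in wild type and 3766, 3004 and 3561 in knockout, never more than 0.13 log2 above Elobl or 0.04 log2 below it. With a log2 difference of 1.96 (SE 0.13, limma adjusted p = 0.0153) it was the only other probe past the threshold. Like Elobl, it passed the filter on dim probes through its signal in the knockout group, and its wild type signal lay in the background range. Its Pearson correlation with Elobl over the 6 arrays was 0.9996, the highest of 22639 probes, and 93 probes correlated above 0.9. With 2 groups that differ this widely, a high correlation mostly reflects the genotypes. The next 4 were Rpl23, Tsc22d2, Pigr and Creld1, at 0.9883, 0.9844, 0.9832 and 0.9788. Rpl23, a ribosomal protein gene, is the measured gene just before Lasp1. Its dimmer probe ILMN_2685675 read 1850, 1788 and 1796 in wild type and 2397, 2210 and 2332 in knockout (log2 difference 0.35, SE 0.11), with groups that overlapped after quantile normalization, and its bright probe ILMN_2946482 overlapped between the genotypes (384329 to 464920 and 410135 to 497025).

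2210409E12Rik, listed in the gene table as a transcribed pseudogene, is the next measured gene after Elobl and differed in the opposite direction. Its probe read 3362, 3239 and 1970 in wild type and 1815, 1659 and 1806 in knockout mucosa. The knockout arrays lay close together (1760 ± 88, n = 3), while wild type replicate 3, on which pancreatic transcripts were high, came within 0.12 log2 of them (wild type 2857 ± 771, n = 3). The log2 difference was -0.66 (SE 0.22, limma adjusted p = 0.994), and -0.76 after quantile normalization, where the gap widened to 0.42. Within the title-number sets it was -0.86 and -0.19 as deposited, and -0.91 and -0.51 after quantile normalization. The measured genes on either side of this pair did not separate in the deposited values. Akap1, an anchoring protein for protein kinase A, read 10155 to 21206 in wild type and 11189 to 15095 in knockout, and Coil, the Cajal body protein coilin, read 1907 to 2491 and 2148 to 2774. After quantile normalization the groups of Akap1 did not overlap, lower in the knockout.

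Rsad1 and Acsf2 were a second pair of adjacent measured genes whose differences had opposite signs. Acsf2 encodes a mitochondrial member of the acyl-CoA synthetases, which activate fatty acids. It read 3176, 2737 and 1656 in wild type and 3823, 4159 and 3867 in knockout, so that the lowest knockout array exceeded the highest wild type array. The means were 2523 ± 782 and 3950 ± 182 (n = 3 each), with a log2 difference of 0.70 (SE 0.24, limma adjusted p = 0.994). It was 0.58 after quantile normalization and 0.42 without wild type replicate 3. Within the title-number sets it was 0.38 and 1.28 as deposited, and 0.29 and 0.95 after quantile normalization.

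Rsad1, a radical SAM protein related to bacterial haem chaperones, read 5855, 3981 and 2997 in wild type and 2840, 3420 and 2650 in knockout on its brighter probe. Knockout replicate 2 lay above wild type replicate 3, so the groups overlapped. The log2 difference was -0.48 (SE 0.25, limma adjusted p = 0.994) and -0.23 without wild type replicate 1, the array with the highest value. It was -0.77 and 0.01 within the title-number sets. After quantile normalization the groups of the brighter probe separated (-0.62, with -0.84 and -0.41 within the sets). The dimmer probe overlapped under both scales, with log2 differences of -0.22 and -0.31. The measured gene before Rsad1, Mycbpap, read 4769 to 5753 in wild type and 6476 to 9468 in knockout, and overlapped after quantile normalization. Chad, the measured gene after Acsf2, overlapped on both scales.

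Tom1l1 encodes an adaptor with VHS and GAT domains that binds Src family kinases and clathrin. It read 3891, 3403 and 2417 in wild type and 2277, 2702 and 2587 in knockout. Both groups lay between 2277 and 3891, and wild type replicate 3 lay below 2 of the knockout arrays. The log2 difference was -0.34 (SE 0.20, limma adjusted p = 0.994, exact two-sided permutation p = 0.3), with -0.68 and 0.13 within the title-number sets. It was -0.19 without wild type replicate 1 and -0.53 without wild type replicate 3. After quantile normalization wild type replicate 3 read 3113 and the groups separated (-0.46, with -0.74 and -0.25 within the sets). Its neighbours in gene order, Cox11, an assembly factor of cytochrome c oxidase, and Mbtd1, overlapped as deposited, and Cox11 separated after quantile normalization. Tom1l1 and Rsad1 are thus the 2 genes whose separation depended on the scaling. For both, wild type replicate 3 set the overlap, and the part of its pancreatic transcripts in that was not tested.

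Rapgefl1 encodes a protein like the exchange factors that activate Rap GTPases, and its 2 probes did not show the same difference. The brighter, ILMN_1250569, read 25904, 30480 and 20377 in wild type and 14033, 19224 and 12130 in knockout. All knockout arrays were below all wild type arrays, by as little as 0.08 log2, for a log2 difference of -0.77 (SE 0.22, limma adjusted p = 0.994; -0.94 after quantile normalization). Within the title-number sets it was -1.0 and -0.42 as deposited, and -1.1 and -0.88 after quantile normalization. The dimmer, ILMN_2979257, read 5876, 5871 and 3351 in wild type and 5813, 7104 and 4635 in knockout, with a log2 difference of 0.24 (SE 0.27). The groups of the dimmer probe overlapped and it had no settled direction. Its difference was 0.09 after quantile normalization and -0.03 without wild type replicate 3. Within the sets it was -0.01 and 0.78 as deposited, and -0.1 and 0.34 after quantile normalization. Casc3, an exon junction complex gene, and Wipf2, on either side of Rapgefl1, overlapped between the genotypes on both scales.

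The ratio of 2 probes within an array stays the same when the whole array is multiplied by a constant. Background and quantile normalization can alter it, and the deposited values were used. For Rapgefl1 the log2 ratio of the brighter to the dimmer probe was 2.14, 2.38 and 2.60 in wild type and 1.27, 1.44 and 1.39 in knockout mucosa. The groups lay clearly apart, and the ratio was 2.01-fold lower in the knockout (log2 -1.01). The 2 probes therefore changed unequally, which does not show that either one did not change. Among 3015 genes with 2 tested probes, the ratio separated the genotypes in 8.19%. A difference in ratio at least as large as that of Rapgefl1 was found in 5 genes with Rapgefl1 counted, namely Bcl2l12, Chil3, Cpb1, Muc13 and Rapgefl1. The groups did not overlap in 2 of these 5, Rapgefl1 and Bcl2l12. The ratio of Bcl2l12 was set apart by 1 array, with 2.43 on wild type replicate 3 and -0.70 to -0.54 on the other 5 arrays. This comparison was chosen after the values were seen, and the Rapgefl1 probe that chose the gene is part of it.

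**Figure D2:**
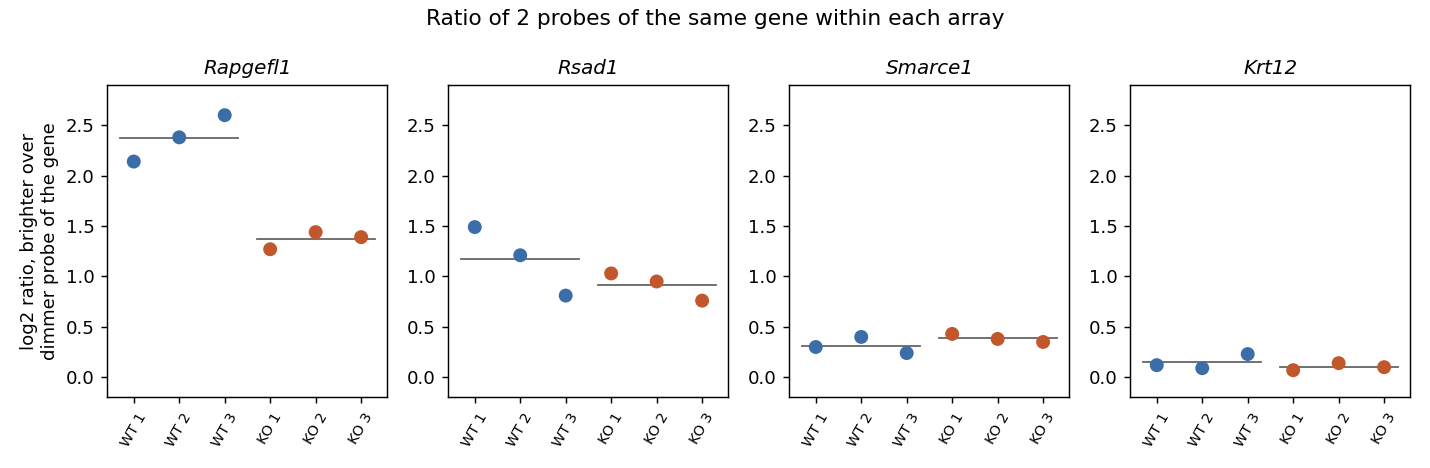
Log2 ratio of the brighter to the dimmer probe of one gene within each array, for the 4 genes with 2 probes; blue points are wild type (WT) arrays, red points are Lasp1 knockout (KO) arrays and lines are group means. The Rapgefl1 ratio was 2.14 to 2.60 in wild type and 1.27 to 1.44 in knockout, and the groups of the other 3 genes overlapped.

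Smarce1 and Krt12 gave like differences on both of their probes. Smarce1 encodes an HMG-box subunit of the SWI/SNF (BAF) chromatin remodelling complex. Its brighter probe read 12789, 11437 and 9174 in wild type and 17222, 18181 and 17385 in knockout, and the knockout arrays were again close together. The means were 11133 ± 1826 and 17596 ± 513 (n = 3 each), with a log2 difference of 0.67 (SE 0.15, 1.59-fold, limma adjusted p = 0.994). The dimmer probe read 7764 to 10380 in wild type and 12810 to 13992 in knockout, a log2 difference of 0.60 (SE 0.14). Neither probe overlapped between the groups on either scale, and after quantile normalization the differences were 0.50 and 0.43. The brighter probe differed by 0.51 and 0.95 within the title-number sets, and by 0.42 and 0.47 after quantile normalization. Tns4, a tensin gene just before Smarce1, overlapped on both scales (1234 to 3371 in wild type and 1979 to 6562 in knockout).

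Krt12 encodes a type I keratin best known from the corneal epithelium, and it had the second largest difference of the 8 genes. Its brighter probe read 2172, 1771 and 1060 in wild type and 5958, 6967 and 2368 in knockout. Knockout replicate 3 lay only 0.12 log2 above the highest wild type array, and the other knockout arrays were far above it. The means were 1668 ± 563 and 5098 ± 2417 (n = 3 each), with a log2 difference of 1.53 (SE 0.45, 2.89-fold, limma adjusted p = 0.994). It was 1.48 after quantile normalization and 2.01 without knockout replicate 3. Within the title-number sets it was 1.6 and 1.94 as deposited, and 1.49 and 1.87 after quantile normalization. The second probe gave 1.57 (SE 0.46), and 1.55 after quantile normalization. Of the 2 arrays high in squamous transcripts, wild type replicate 2 (274920 for the cornified envelope protein Lor) read 1771 for Krt12 and knockout replicate 1 (399114 for Lor) read 5958. Knockout replicate 2, with 3355 for Lor, read 6967. Without both arrays high in squamous transcripts the log2 difference of Krt12 was 1.42. Krt10, the keratin of cornified epithelium that lies between Smarce1 and Krt12 in gene order, was high on the same 2 arrays: it read 241643 and 439721 there and 6357 to 13723 elsewhere. Krt20, the intestinal and gastric surface keratin just after Krt12, overlapped between the groups (29606 to 57280 in wild type and 25610 to 62330 in knockout).

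Genes related to the 8 by family or complex were described from lists. None of them passed the limma test over all probes in either direction, so the counts at an unadjusted p under 0.05 are given, which 2.17% of all named genes had. That count was 0 of 22 other BAF and PBAF subunits, 0 of 12 elongin and cullin ligase genes, 0 of 10 other type I keratins, 0 of 11 Rap exchange factors and Rap genes and 0 of 14 radical SAM and haem synthesis genes. It was 2 of 15 other acyl-CoA synthetases and 1 of 10 genes of VHS and GAT domain sorting proteins. Median log2 differences were 0.09 for the BAF and PBAF subunits (range -0.11 to 0.37), 0.16 for the elongin genes (-0.04 to 0.23), 0.12 for the acyl-CoA synthetases (-0.47 to 0.51), 0.10 for the Rap genes (-0.08 to 0.25), 0.16 for the sorting genes (-0.15 to 0.36) and 0.11 for the radical SAM and haem genes (-0.17 to 0.38), beside 0.12 over all named genes. The type I keratins had a median of 0.42 (-0.32 to 1.13), and several of them belong to squamous epithelium.

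In each list the 2 genes of smallest p were looked at. In the BAF list Smarcd3 and Actl6a had log2 differences of 0.37 and 0.25, against 0.67 for Smarce1 itself. In the elongin list Rbx1, the RING subunit of cullin ligases, and Cul2, a cullin that binds elongins, had 0.23 and 0.22. Among keratins Krt19 and Krt23 had 0.50 and 0.24. Among acyl-CoA synthetases Aacs, which activates acetoacetate, had 0.51 and Acsl6, a long-chain enzyme, had -0.47, both with groups that did not overlap as deposited (after quantile normalization those of Aacs did). Rap1b and Rap2a, both Rap GTPases, had 0.25 and 0.17. Of the sorting genes Stam2 and Gga3 had 0.36 and 0.30, and the groups of Stam2 overlapped only after quantile normalization. Of the haem and radical SAM genes Uros and Tyw1 had 0.24 and 0.26. Actl6a, Rbx1 and Gga3 overlapped as deposited but separated after quantile normalization, higher in the knockout. All the genes named here from the lists had a limma adjusted p of 0.994.

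The stretch around Lasp1 was then described as a whole, each gene by its brightest probe. Of the 200 measured genes within 100 of Lasp1 on either side, 17 had groups that did not overlap (8.5%), 15 higher and 2 lower in the knockout. The share was 7.47% over all 11868 named genes and 7.55% on the other chromosomes, so in the deposited values it lay near the background. After quantile normalization 24 of the 200 separated (12%), 14 higher and 10 lower, against 6.28% over all genes, 6.06% on the other chromosomes and 7.73% on the rest of chromosome 11. Without the 8 genes chosen here the share was 5.73% of 192 as deposited and 8.33% after quantile normalization. An unadjusted limma p under 0.05 was found for 14 of the 200 genes (7%), for 4.17% with the 8 left out and for 2.17% of all genes. Since the 8 were taken from this stretch for separating the groups, these shares were not tested.

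**Figure D3:**
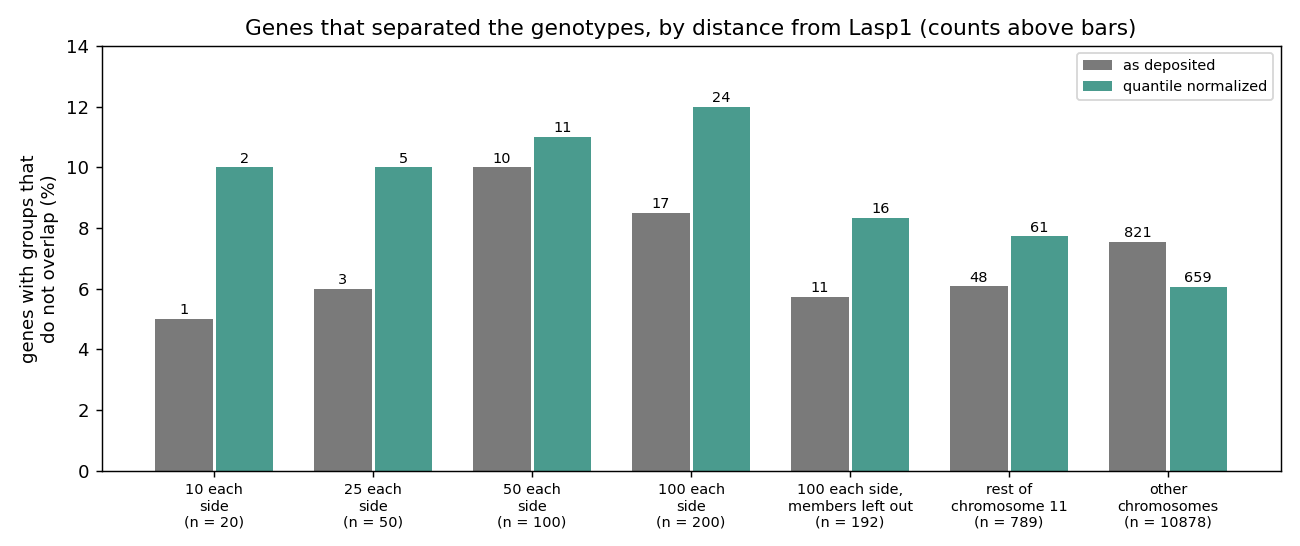
Percent of measured genes whose wild type and knockout arrays did not overlap, by distance from Lasp1 in gene order (grey, intensities as deposited; green, after quantile normalization), with the number of such genes above each bar and the genes in each stretch below it. Within 100 genes on each side the share was 8.5% and 12%, against 7.55% and 6.06% on the other chromosomes.

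Of the 200 neighbours 183 had groups that overlapped in the deposited values, and the genes next to Lasp1 were mostly among them. By their brightest probes, Rpl23, Cwc25 and Pip4k2b on one side and Plxdc1, Cacnb1 and Rpl19 on the other all overlapped as deposited. Cwc25 alone of these separated after quantile normalization. The dimmer Rpl23 probe, ILMN_2685675, separated as deposited, higher in the knockout, and overlapped after quantile normalization. Plxdc1 and Cacnb1 read 913 to 1221 over all arrays, at about background, so their overlap says little about these 2 genes. The 11 other neighbours that separated in the deposited values were all higher in the knockout, with log2 differences of 0.10 to 0.51. On that scale 790 of the 887 named genes that separated were higher. After quantile normalization 16 other neighbours separated, 10 higher and 6 lower. In the deposited values the largest difference of the 11 was that of Mycbpap at 0.51. Of the members whose groups did not overlap on that scale, the smallest in size was -0.66, for 2210409E12Rik. Tom1l1 (-0.34) and Rsad1 (-0.48) overlapped there and were smaller in size than Mycbpap. After quantile normalization Mycbpap overlapped, and among the other neighbours that separated Akap1 (-0.41) came close to the member Tom1l1 (-0.46). Because the members were chosen for separating the groups, nothing is read from these sizes. A large difference did not by itself separate the groups: Gast, the gene of the hormone gastrin, differed by -1.50 and Krt13, a squamous keratin, by 1.13, both with groups that overlapped.

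**Figure D4:**
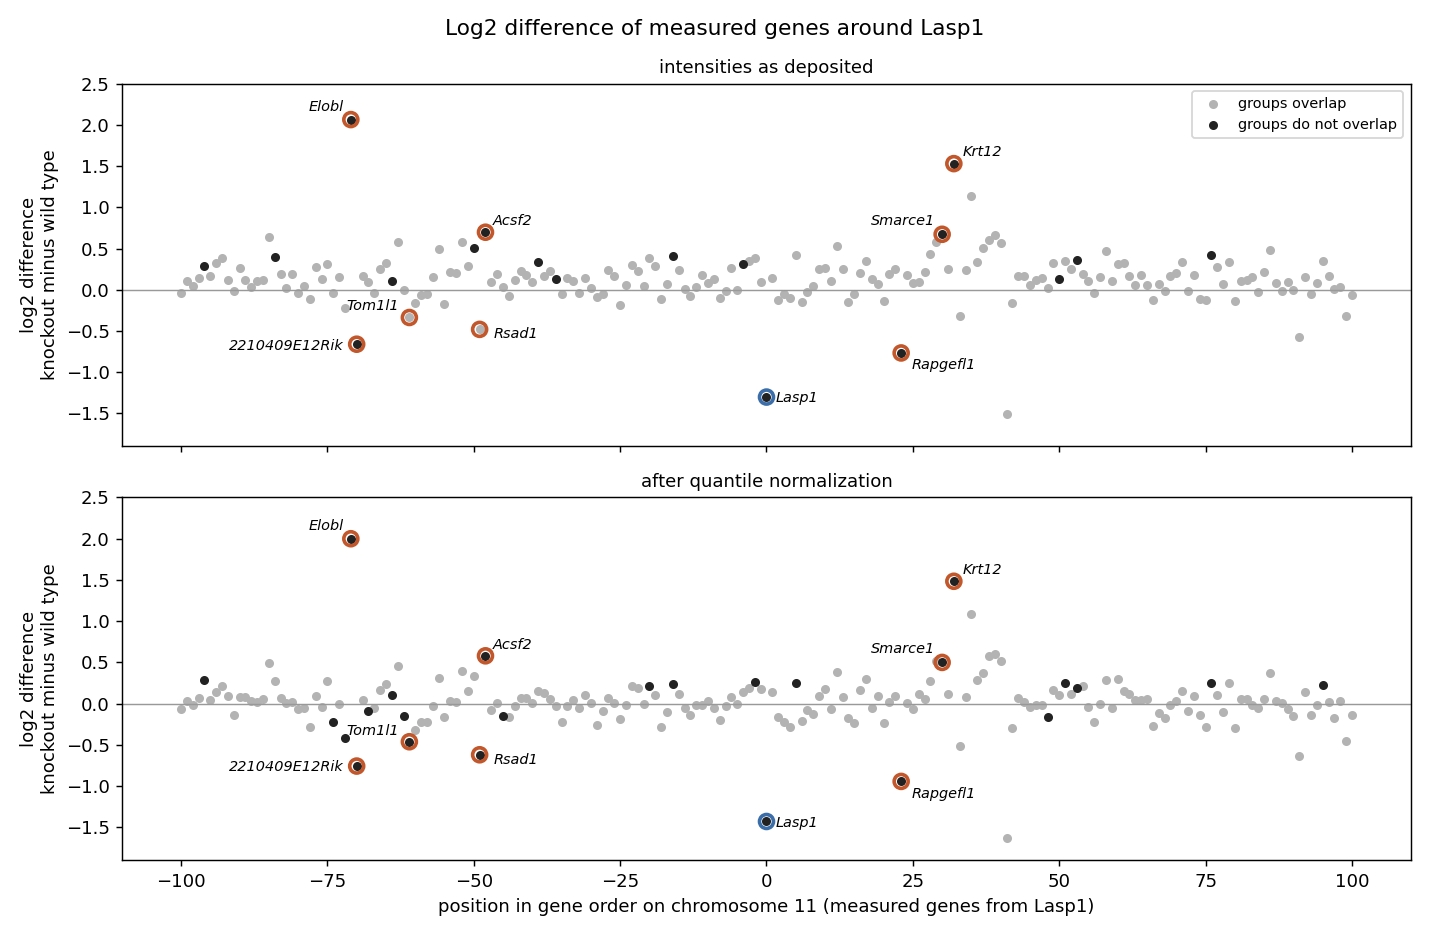
Log2 difference (knockout minus wild type) of each measured gene within 100 genes of Lasp1 in chromosome 11 gene order, in the deposited intensities (top) and after quantile normalization (bottom); black points are genes whose groups did not overlap, grey points those that overlapped, red rings the 8 genes and the blue ring Lasp1. Elobl (2.06) and Krt12 (1.53) stand highest in the top panel, where the median size of the difference of the 200 neighbours was 0.162. Several genes beside Krt12 lay far from 0 with groups that overlapped, among them Krt13 (1.13), Krt16 (0.67) and Gast (-1.50).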

How the data were processed

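Values are the deposited series table of probe intensities, in which the authors scaled each array to a median of 1000, as the values show. Background was not subtracted. Which scanner, software and filter were used is not given in the sources used here. Probes were named from the platform annotation (34885 of 45281 had 1 symbol, 18 several and 10378 none), and 34803 matched the GRCm38.p6 gene table, used for names and gene order only. Intensities were log2 transformed, and probes with a mean log2 value above that of the median probe (about 991) were tested, 22640 in all, by two-sided tests of limma 3.58.1 (lmFit, eBayes; R 4.3.3) at a Benjamini-Hochberg adjusted p under 0.05. The script was tested on simulated data. Single probes also had an exact permutation test, which for 3 against 3 arrays cannot go below 0.1. Groups do not overlap where every array of one lies above every array of the other. Where a gene had several probes, the brightest stands for it unless stated.

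The genes named were all probes of the 8 genes and Lasp1, the 3 measured genes on each side of Lasp1, the nearest on each side of every member, the 5 probes most correlated with Elobl, and the 2 of smallest p in each list. Bcl2l12, Chil3, Cpb1, Muc13, Gast, Krt13, Lor, Acot1 and Xist were named after their values were seen. The genes, lists and tests were chosen with earlier results of these data known. Replicate numbers were not used as pairs in the main fit. Correlations of the deviations of same-numbered arrays were 0.04, -0.30 and 0.53, and those of the others ran from -0.56 to 0.55. These values cannot settle whether the numbers mark pairs. Alternatives were quantile and cyclic loess normalization, normexp, other filters and variance models, an offset, array weights, blocks, another threshold, the mean of a gene's probes and left-out arrays. Figures used matplotlib 3.10.9 (Python 3.11.15).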

Additional observations from a re-analysis of the deposited data

How the results depend on the processing

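The count of probes past the threshold was 2, of which 1 was a probe of the 8 genes (Elobl) and the other the unnamed ILMN_2993962. Both counts fell to 0 with the filter at the upper quartile, which removes the Elobl probe, with an offset of 1000 before the log, and without the 2 arrays high in squamous transcripts. With array weights 1816 probes passed, 9 of them of the 8 genes, on a fit in which wild type replicate 2 had a weight of 38.8 and no other array more than 1.6. Leaving out 1 array gave 0 to 3 probes in all and 0 to 1 of the 8 genes. Of the 200 neighbours 28 to 57 then had separate groups in place of 17, with 57 without wild type replicate 1. Fewer arrays overlap less often, and the share over all genes is not given for these settings, so nothing is read from these counts. With the replicate number as a block 0 probes passed in all and 0 of the 8 genes, and Elobl had a log2 difference of 2.06 (limma adjusted p = 0.0711). Whether the shared numbers mark pairs is not known, and not every array correlated best with the array of its own number. The dimmer Rapgefl1 probe had log2 differences of -0.03 (without wild type replicate 3) to 0.40 on leaving out 1 array, against 0.24 with all, and the mean of both Rapgefl1 probes was -0.26 against -0.77 for the brighter. Of 228 values of single probes under alternatives, 210 kept their direction and side of the threshold, 8 lost the threshold (all Elobl), 8 gained it (all with array weights), 1 reversed and 1 moved. Where no cause is given, the cause was not tested. Signal near background limits Elobl in wild type, so the ratio of its signal above background is understated.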
